A study of Mus musculus with 24 samples.

Results

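In adipose tissue of wild-type and STAT5B-mutant mice, 10 genes of insulin signalling and glucose uptake were examined, out of 24421 gene symbols with counts. The 10 genes were chosen by symbol: the insulin receptor Insr, its adaptors Irs1 and Irs2, the kinase subunit Pik3r1, the kinase Akt2, the transcription factor Foxo1, the glucose transporters Slc2a4 and Slc2a1, the hexokinase Hk2 and the transcription factor Mlxipl. All 10 were present in every library and passed the low-count filter in every comparison, with 396 to 30050 counts per library. Total RNA came from C57BL/6 mice aged 2 months that were wild type (WT) or carried STAT5B-Y665F or STAT5B-Y665H, point mutations that replace a tyrosine of its SH2 domain by phenylalanine or histidine. Males and females of each genotype made 6 groups of 4 libraries. The labels do not say whether the mutant mice carried 1 or 2 changed alleles, which fat depot was taken, or whether each library came from its own animal, so p-values measure the spread between these libraries, which may be technical.

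In fat cells, insulin binds its receptor, which phosphorylates the adaptors IRS1 and IRS2. These recruit PI3-kinase, which leads to activation of AKT2, and AKT2 moves the insulin-regulated transporter GLUT4 (encoded by Slc2a4) to the cell surface and keeps FOXO1 out of the nucleus. Glucose that enters is trapped by hexokinase, and its metabolites activate ChREBP, the transcription factor encoded by Mlxipl that turns on genes of glycolysis and fat synthesis. STAT5B is activated by growth hormone, which opposes the action of insulin in fat.

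Depth was 21.0 M to 41.3 M gene counts per library, where M is 1000000. All 12 listed adipocyte markers averaged at least 1 CPM (count per M gene counts) in each of the 6 groups, and their sum was 10161 to 39435 CPM over the libraries. The series title speaks of liver, whereas all samples are labelled adipose; liver markers were not tested. Several libraries also held genes of other tissues. The summed level of 8 epididymis markers was 0.145, 7734, 2239 and 731 CPM in WT males 1 to 4, at most 1101 CPM in the mutant males and at most 23.4 CPM in females. WT male 2 had the lowest adipocyte marker sum of all libraries, 10161 CPM. Y665F female 3 had the lowest adipocyte sum among females, 15826 CPM, and an epithelial marker sum of 1414 CPM, against 64.3 to 279.7 CPM in the other females. The summed level of 15 skeletal muscle markers was 74.4 to 2379 CPM in Y665H females, 158 to 1355 CPM in WT females and 84.5 to 217 CPM in Y665F females. The part of these differences in the results was not tested, beyond the fits with marker covariates and with single libraries left out that are given below.

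Promoter windows from RefSeq (GRCm38.p6; 250 bases before to 50 after each start) were found for 8 of the 10 genes, 13 windows in all. They are shown, 5′ to 3′ on the gene's strand, for 3 genes whose levels did not overlap between groups of females: Irs1 (Y665H and WT), Mlxipl (Y665H and Y665F) and Akt2 (Y665F and WT). Each was searched on both strands for the palindrome TTCNNNGAA that STAT5 is known to bind, the E-box CACGTG and the FOXO motif GTAAACA, with no overlaps among the matches. Capitals mark the E-box in Irs1 and Mlxipl and the STAT5 palindrome in Akt2. Mlxipl and Akt2 had further windows, which held no match and are not shown.
Irs1, chr1:82291390-82291689, minus strand: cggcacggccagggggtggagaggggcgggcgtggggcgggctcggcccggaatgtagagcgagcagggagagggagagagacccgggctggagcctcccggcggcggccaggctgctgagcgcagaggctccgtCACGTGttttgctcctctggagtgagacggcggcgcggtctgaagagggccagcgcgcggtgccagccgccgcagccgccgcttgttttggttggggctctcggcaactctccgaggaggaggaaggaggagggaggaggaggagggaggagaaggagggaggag
Mlxipl, upstream start, chr5:135089640-135089939, plus strand: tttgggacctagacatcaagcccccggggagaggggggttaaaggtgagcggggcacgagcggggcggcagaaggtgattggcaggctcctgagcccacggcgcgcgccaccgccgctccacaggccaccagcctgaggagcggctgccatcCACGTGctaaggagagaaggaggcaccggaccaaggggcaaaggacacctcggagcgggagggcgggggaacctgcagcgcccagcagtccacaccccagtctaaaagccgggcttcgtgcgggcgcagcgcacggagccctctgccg
Akt2, upstream start, chr7:27591302-27591601, plus strand: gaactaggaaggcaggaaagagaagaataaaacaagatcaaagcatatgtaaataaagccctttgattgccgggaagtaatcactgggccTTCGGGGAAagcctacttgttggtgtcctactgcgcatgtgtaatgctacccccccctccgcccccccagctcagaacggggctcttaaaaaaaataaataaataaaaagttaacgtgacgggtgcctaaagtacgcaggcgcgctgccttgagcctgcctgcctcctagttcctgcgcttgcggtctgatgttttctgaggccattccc
The E-box begins 115 bases before the Irs1 start and 98 bases before the upstream Mlxipl start. Irs2 had the only other E-box among the 13 windows, 44 bases before its start. Among all 32851 windows of this length, 7.15% held the E-box. The STAT5 palindrome, found in 1 of the 13 windows and in 8.3% of all, begins 160 bases before the upstream Akt2 start. The FOXO motif was in 0 of the 13 windows and in 3.65% of all. These are matches of letters and do not show binding. The upstream Mlxipl start is known to give the shorter, more active ChREBP-beta, and counts per gene do not separate it from the longer form.

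In WT females, the genes with the highest levels per kilobase of exon were Slc2a4 (96.4 CPM per kb), Pik3r1 (94.3 CPM per kb) and Akt2 (88.9 CPM per kb). Hk2 followed at 48 CPM per kb, Mlxipl at 33.9, Irs1 at 27.4, Insr at 27, Foxo1 at 17.1 and Irs2 at 16.1 CPM per kb. Slc2a1, the ubiquitous basal glucose transporter GLUT1, was lowest at 5.13 CPM per kb. In WT males Pik3r1 (58.8 CPM per kb) and Akt2 (53.6 CPM per kb) stood above Slc2a4 (48.6 CPM per kb), and Irs1 was at 12.5 and Slc2a1 at 8.19 CPM per kb. Lengths are merged coding-transcript exons of GENCODE vM21, which may differ from the annotation the authors counted on. All levels below are TMM-scaled CPM and are compared within a gene.

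Genes were tested with edgeR across all genes, and a gene with a Benjamini-Hochberg adjusted p under 0.05 is termed called. Both mutants were compared with the same WT libraries, so their comparisons with WT are not independent. In the next paragraphs, a percentage in parentheses after a count of the 10 genes is the share of all tested genes that met the same rule.

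In females, Y665F against WT called 0 of the 10 genes (3.33% of 15642 tested genes). At an unadjusted p under 0.05 there were 4 of the 10, all lower in Y665F (26.3%), and DESeq2 called 3 of the 10, Akt2, Irs2 and Slc2a4 (12.9%). Akt2, Slc2a4 and Mlxipl, 3 of the 10, did not overlap between the groups (16.7%). The median log2 fold change of the 10 was -0.30, against 0.02 over all tested genes, and 2 of the 10 were above 0 (52.8%). Marker genes moved in the same comparison: 5 of 7 tested thermogenic adipocyte markers fell (median -2.13), and 11 of 13 T and NK cell markers (median 1.83) and 3 of 10 B cell markers (median 1.16) rose. The part of these 3 lists in the result was not tested. Of the adipocyte markers 0 of 12 were above 0 (median -0.41), and of the skeletal muscle markers 0 of 15 (median -2.94), with 0 called in either list. As covariates, the skeletal muscle markers left 0 of 15642 genes called and the adipocyte markers 568. Y665H against WT in females called 1 of the 10, Irs1, which was higher (3.34%). DESeq2 also called 1 (11.4%), 2 had an unadjusted p under 0.05 (23.8%) and 1 did not overlap (14.3%). The median was 0.05, against 0.00 over all genes. Y665H against Y665F in females called 1 of the 10, Mlxipl, which was higher in Y665H (17.4%). DESeq2 called 3, adding Akt2 and Slc2a4 (25.2%), 3 had an unadjusted p under 0.05 (33.4%), and Mlxipl and Akt2 did not overlap (25.2%). The median was 0.33, against -0.03 over all genes, with 8 of the 10 above 0 (46.2%).

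In males, Y665F against WT called 0 of the 10 genes by edgeR (0% of all genes) and 0 by DESeq2 (6.38%), with 0 at an unadjusted p under 0.05 (17.1%). Only Irs1 of the 10 did not overlap (8.33%). Y665H against WT called 0 of the 10 by edgeR (0%) and 0 by DESeq2 (0.402%), with 1 at an unadjusted p under 0.05 (11.4%). Only Akt2 did not overlap (3.08%). The medians were 0.12 for Y665F and 0.11 for Y665H, against -0.04 and -0.05 over all genes. In each comparison 7 of the 10 were above 0 (45.2% for Y665F and 43.9% for Y665H). Y665H against Y665F called 0 of the 10 by edgeR (1.03%) and 0 by DESeq2 (6.74%). Irs1 and Slc2a4 were lower at an unadjusted p under 0.05 (18%), and all 10 overlapped, where 12.3% of all genes did not. The median was -0.08, against -0.02 over all genes, with 4 of the 10 above 0 (47.8%). WT males against WT females called 3 of the 10, Slc2a1 higher and Irs1 and Akt2 lower in males (13.1%). DESeq2 called 5 (24.7%), 6 had an unadjusted p under 0.05 (33.5%) and 6 did not overlap (21.9%). The median was -0.53, against 0.04 over all genes.

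**Figure D1:**
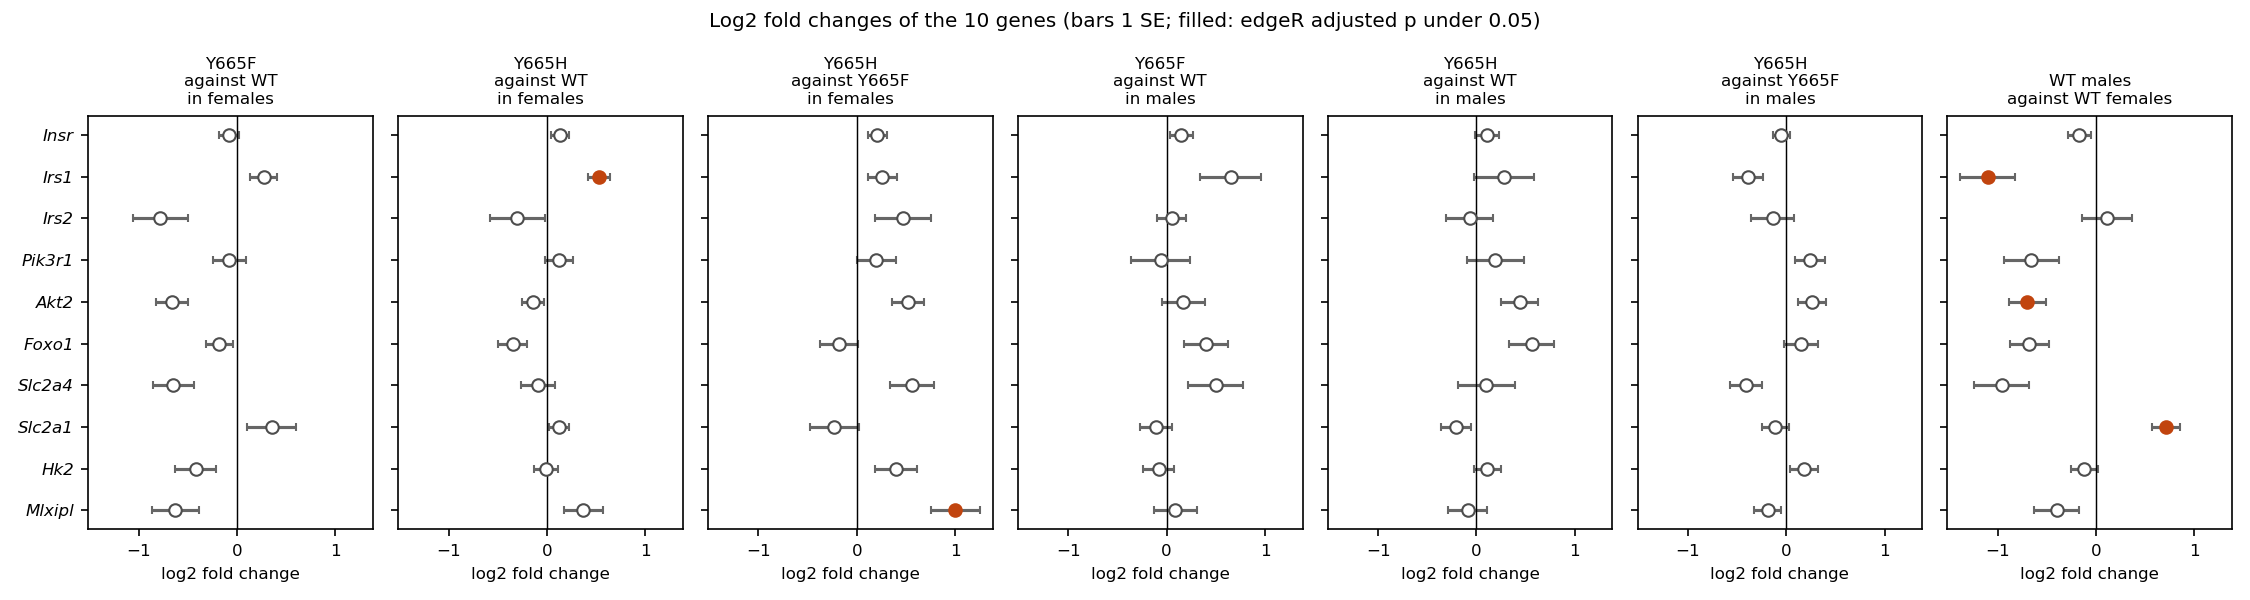
Log2 fold changes of the 10 genes (rows) in the 7 comparisons between groups (panels); points are edgeR estimates, bars 1 SE, and filled points an adjusted p under 0.05. The 5 filled points are Irs1 in Y665H against WT females, Mlxipl in Y665H against Y665F females, and Irs1, Akt2 and Slc2a1 between WT males and WT females.

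Insr (chr8:3122061-3279617, minus strand, GRCm38 for all gene positions) encodes the insulin receptor. It varied least of the 10, from 180.4 to 292 CPM over the 24 libraries, a 1.62-fold range. Group means lay between 219 ± 29.2 CPM in WT males and 277 ± 20.9 CPM in Y665H females (SD, n = 4), and neighbouring groups overlapped throughout. It was called in none of the 9 comparisons, the sex interactions included, by edgeR.

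Irs1 (chr1:82233101-82291416, minus strand), the adaptor that carries most of the insulin signal to PI3-kinase in fat cells, varied most, 7.7-fold over the libraries. WT females 1 to 4 had 271, 225, 262 and 244 CPM. Y665F females had 295, 383, 237 and 288 CPM, and Y665H females had 355, 407, 304 and 383 CPM. All Y665H females lay above all WT females, whereas Y665F females overlapped both. Irs1 rose by 0.53 ± 0.11 (log2, SE) in Y665H against WT females, with an edgeR adjusted p of 0.0407. With 1 library left out, the call held in 1 of 8 fits, the one without WT female 3, and the adjusted p ran from 0.042 to 0.149. The call was also lost in the fit over all 24 libraries (adjusted p = 0.227). In the bulk tissue, fewer cells of a type and less RNA per cell cannot be told apart. The summed adipocyte markers were 33854 to 39435 CPM in Y665H females and 30111 to 35246 CPM in WT females, and with the adipocyte markers as covariate the adjusted p was 0.0444. For Y665F against WT females the log2 fold change was 0.27 ± 0.14 (edgeR adjusted p = 0.263).

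WT males 1 to 4 had 132, 52.9, 125 and 149.6 CPM of Irs1, Y665F males 157, 194, 223 and 151 CPM, and Y665H males 125, 161, 128 and 153 CPM. All Y665F males lay above all WT males, by a log2 fold change of 0.65 ± 0.31 that was not called (edgeR adjusted p = 0.321). Y665H males had a value of -0.39 ± 0.15 against Y665F males (edgeR adjusted p = 0.223). In every genotype each male library was below each female library. In WT the level fell by 1.10 (log2; SE 0.28) in males against females, with an edgeR adjusted p of 0.0411. The call held without WT male 1, 2 or 4 and was lost without WT male 3 or any of the 4 WT females, up to an adjusted p of 0.107. WT male 2, the lowest, was the library with the most epididymis and the least adipocyte marker RNA. With the adipocyte or the epididymis markers as covariate the value was -0.50 or -0.55 and was not called. Irs1 was the only one of the 10 genes for which 2 neighbouring groups in the order of means, WT females and Y665F males, did not overlap.

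Irs2 (chr8:10984681-11008458, minus strand), the adaptor whose gene FOXO1 is known to activate, had 124, 60.1, 93.7 and 129 CPM in WT females, 54.3, 84.2, 40 and 58.4 CPM in Y665F females and 92.1, 87.8, 104 and 47.3 CPM in Y665H females. The 3 groups overlapped. For Y665F against WT the log2 fold change was -0.78 ± 0.28, which edgeR did not call (adjusted p = 0.139) and DESeq2 did (adjusted p = 0.0442). Males lay between 67.7 and 136 CPM, with group means of 104 ± 32.8 to 113 ± 15.7 CPM (SD, n = 4).

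Pik3r1 (chr13:101680563-101768217, minus strand), the p85-alpha regulatory subunit of PI3-kinase, ranged from 221 CPM in WT male 2 to 991 CPM in Y665H female 3. Within each sex the genotypes overlapped, and it was called in no comparison by edgeR. WT males had 640.3, 221, 435 and 480.3 CPM, all below the 677 to 755 CPM of WT females, at a log2 fold change of -0.66 ± 0.28 (edgeR adjusted p = 0.137). Y665H female 3, the highest, also had the most skeletal muscle marker RNA, 2379 CPM.

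**Figure D2:**
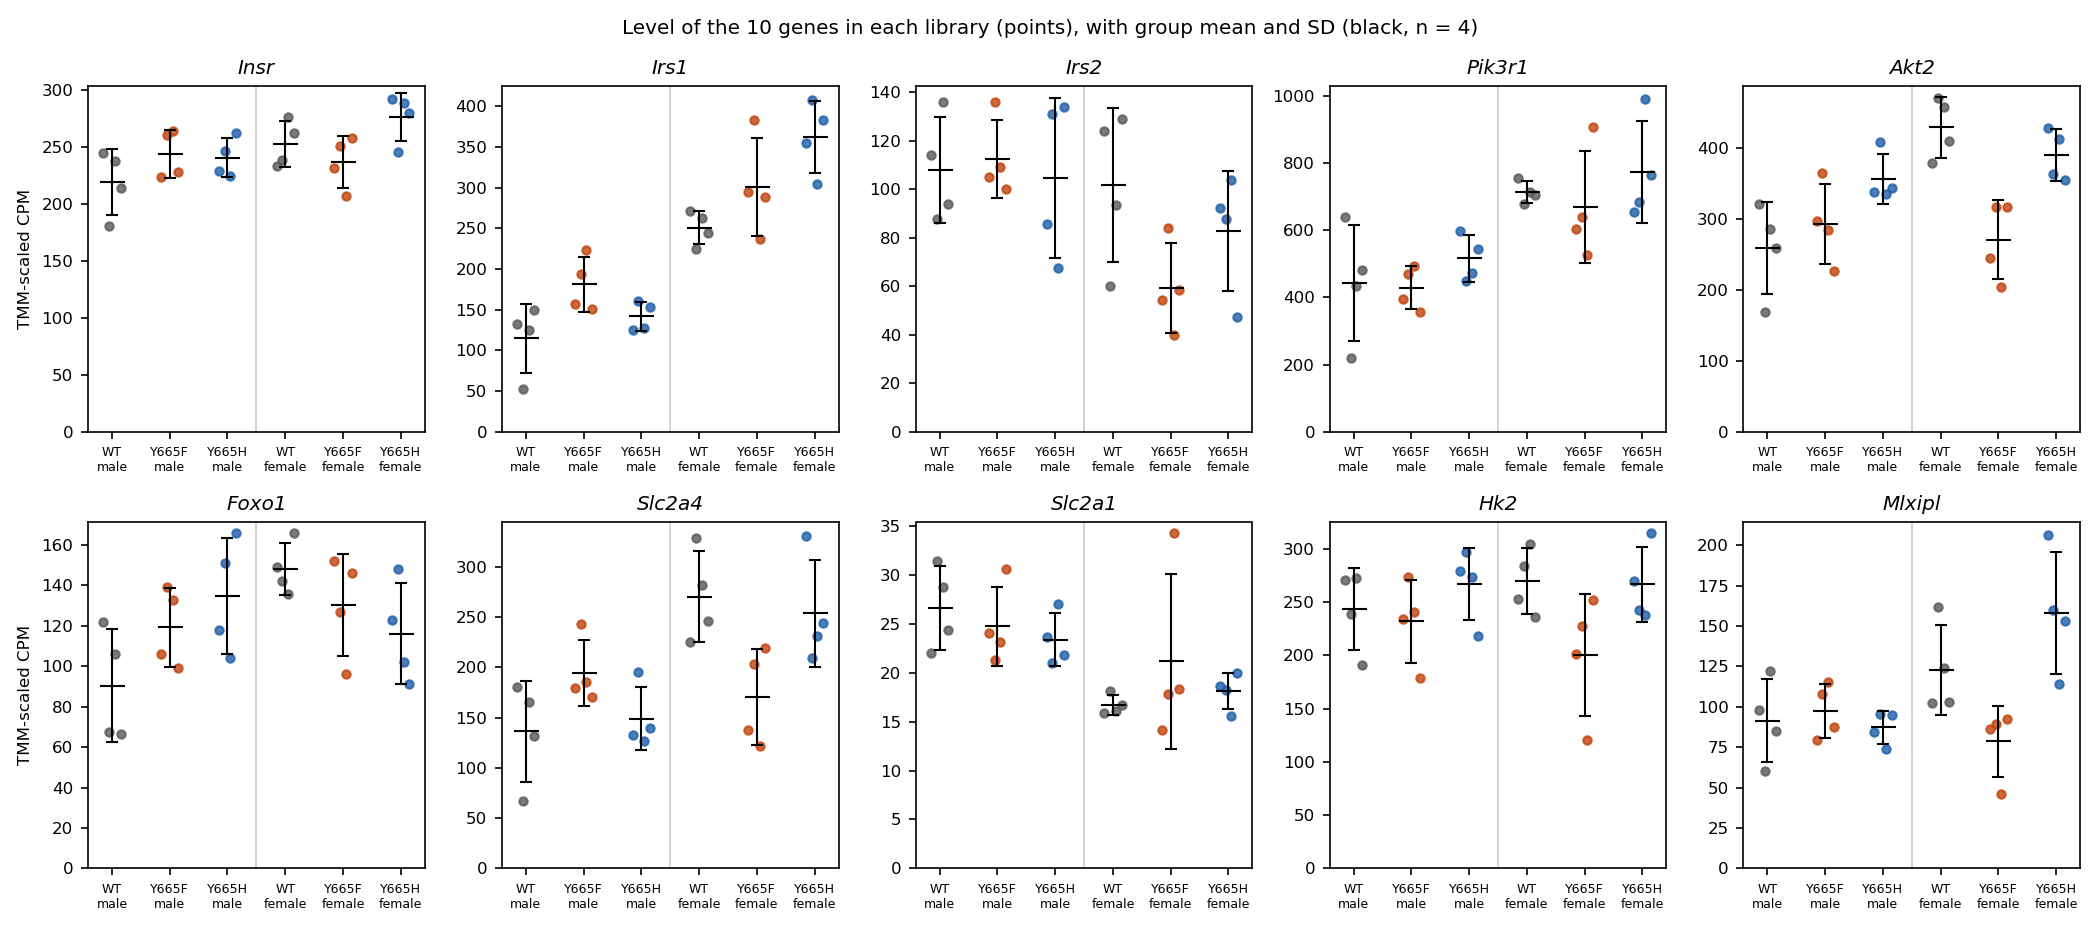
Levels of the 10 genes (panels) in TMM-scaled CPM in the 24 libraries; points are libraries, and the marks beside them give the group mean and SD of 4. Irs1 is above its WT female range (225 to 271 CPM) in all Y665H females, and Akt2 and Slc2a4 are below their WT female ranges in all Y665F females.

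Akt2 (chr7:27591552-27640826, plus strand) encodes the AKT kinase that insulin needs for glucose uptake. WT females had 378, 470.4, 458 and 409 CPM. Y665F females had 245, 316, 204 and 317 CPM and Y665H females 428, 363, 413 and 355 CPM. All Y665F females lay below all females of the other genotypes, while WT and Y665H females overlapped. For Y665F against WT the log2 fold change of -0.66 ± 0.16 missed the threshold in edgeR (adjusted p = 0.0594), and DESeq2 gave an adjusted p of 0.00158. Without Y665F female 3, the lowest, edgeR called it, and the adjusted p over the fits with 1 library left out ran from 0.048 to 0.153. For Y665H against Y665F the log2 fold change was 0.52 ± 0.16 (edgeR adjusted p = 0.0526, DESeq2 adjusted p = 0.00922). The adipocyte markers moved alike: 0 of 12 were above 0 in Y665F against WT females, with a median of -0.41, and 11 of 12 were above 0 in Y665H against Y665F females, with a median of 0.47.

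WT males had 320.3, 169, 286 and 259 CPM of Akt2, Y665F males 297, 364, 284 and 227 CPM, and Y665H males 338, 408, 335 and 344 CPM. All Y665H males lay above all WT males, at a log2 fold change of 0.44 ± 0.19 that was not called (edgeR adjusted p = 0.402). Between the same groups, 11 of 12 adipocyte markers were above 0, with a median of 0.50 and 0 called. In WT, Akt2 fell by 0.70 (log2; SE 0.19) in males against females (edgeR adjusted p = 0.0478), and the call held in 2 of 8 fits with 1 library left out, those without WT male 1 or 2. With the adipocyte or the epididymis markers as covariate the value was -0.36 or -0.35 and was not called. WT male 2 was the lowest male library both in Akt2 and in the adipocyte marker sum.

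Foxo1 (chr3:52268336-52353221, plus strand) encodes the transcription factor that AKT restrains. Females overlapped across genotypes, from 91.2 to 166 CPM, with group means of 148 ± 12.9 CPM in WT, 130.4 ± 25.1 CPM in Y665F and 116 ± 25.2 CPM in Y665H (SD, n = 4). For Y665H against WT the log2 fold change was -0.35 ± 0.15 in females (edgeR adjusted p = 0.185) and 0.56 ± 0.23 in males (adjusted p = 0.402). WT males had 122, 67.3, 106 and 66.6 CPM, below the 136 to 166 CPM of WT females, with an edgeR adjusted p of 0.0571.

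Slc2a4 (chr11:69942539-69948188, minus strand) encodes GLUT4, the transporter that insulin brings to the cell surface. WT females had 225, 329, 282 and 246 CPM. Y665F females had 138, 203, 122 and 219 CPM, all below the WT females, and Y665H females had 331, 209, 231 and 244 CPM. The log2 fold change of Y665F against WT was -0.65 ± 0.21, not called by edgeR (adjusted p = 0.106) and called by DESeq2 (adjusted p = 0.0221). For Y665H against Y665F it was 0.56 ± 0.22 (edgeR adjusted p = 0.113, DESeq2 adjusted p = 0.049). WT males had 180.1, 67.4, 166 and 132 CPM, all below the WT females, at a log2 fold change of -0.96 ± 0.28 (edgeR adjusted p = 0.0568). Y665F males had 179, 243, 185 and 171 CPM and Y665H males 133, 195, 127 and 139.7 CPM, which overlapped each other and the WT males. For Y665F against WT the log2 fold change in males was 0.50 ± 0.28 (edgeR adjusted p = 0.376), opposite in sign to that in females. The summed adipocyte markers were 30111 to 35246 CPM in WT, 15826 to 29964 CPM in Y665F and 33854 to 39435 CPM in Y665H females. In males they were 10161 to 29917 CPM in WT, 15261 to 30363 CPM in Y665F and 26461 to 33019 CPM in Y665H.

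Slc2a1 (chr4:119108711-119137983, plus strand) encodes GLUT1, which carries glucose without insulin. WT males had 22, 31.5, 28.8 and 24.4 CPM and WT females 15.9, 18.2, 16.1 and 16.7 CPM, with no overlap. The level rose by 0.71 ± 0.14 (log2, SE) in WT males against WT females (edgeR adjusted p = 0.0213). The call held without WT male 1, 2 or 4 and was lost without WT male 3 or any WT female, up to an adjusted p of 0.0761. WT males 2 and 3, with the most epididymis marker RNA, had the 2 highest levels, while WT male 1, with 0.145 CPM of those markers, was still above every WT female. With the adipocyte or the epididymis markers as covariate the value was 0.48 or 0.39 and was not called. Y665F females had 14.2, 17.8, 34.3 and 18.4 CPM. The highest, Y665F female 3, was also the female library with the highest epithelial marker sum. Mutant males had 21 to 30.6 CPM and Y665H females 15.6 to 20 CPM.

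**Figure D3:**
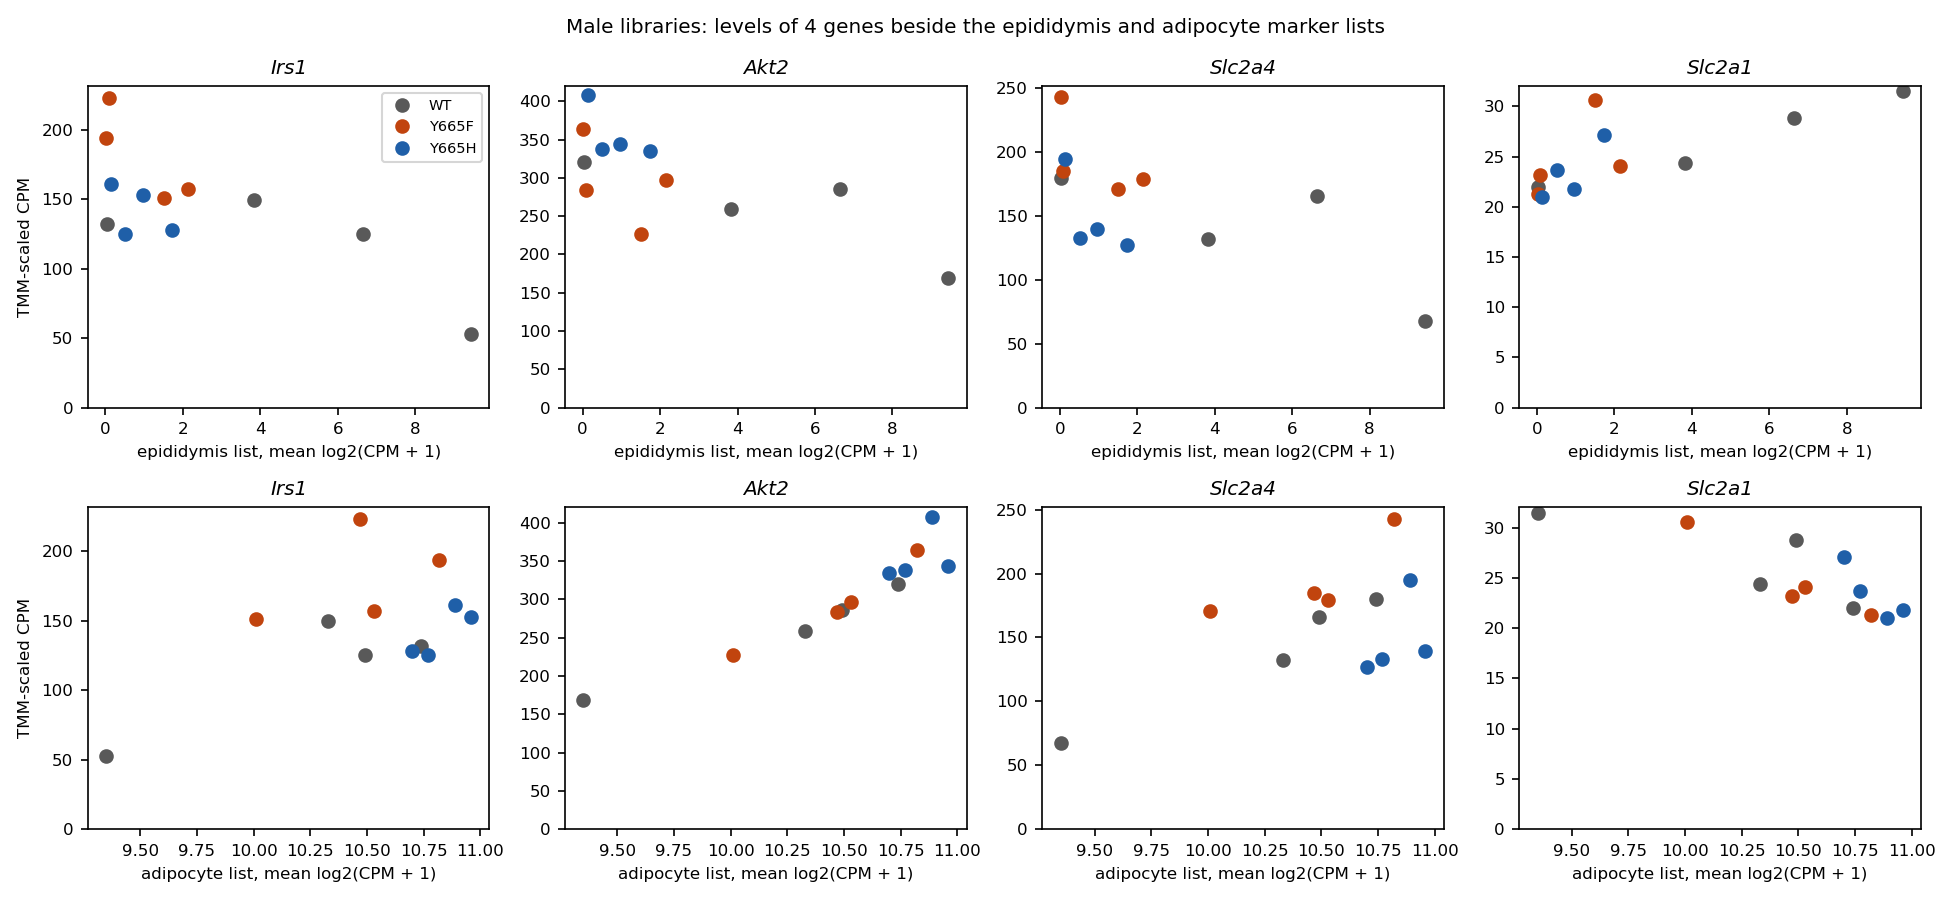
TMM-scaled CPM of Irs1, Akt2, Slc2a4 and Slc2a1 (columns) in the 12 male libraries against the mean log2(CPM + 1) of the epididymis list (top) and the adipocyte list (bottom); each point is a library, coloured by genotype. WT male 2, at the right in the top row and the left in the bottom row, has the lowest Irs1 (52.9 CPM), Akt2 (169 CPM) and Slc2a4 (67.4 CPM) and the highest Slc2a1 (31.5 CPM).

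Hk2 (chr6:82725025-82774454, minus strand) encodes hexokinase 2, the insulin-regulated enzyme that phosphorylates glucose on entry. Y665F females had 201, 228, 120.5 and 252 CPM against 253, 284, 305 and 236 CPM in WT females, and the groups overlapped. The log2 fold change was -0.42 ± 0.21 (edgeR adjusted p = 0.238). The group means of the other 5 groups lay between 232 ± 39.5 and 269 ± 30.9 CPM (SD, n = 4), and no comparison called the gene.

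Mlxipl (chr5:135089890-135138382, plus strand) encodes ChREBP. Y665F females had 86.5, 89.3, 45.9 and 92.4 CPM and Y665H females 206, 159.8, 114 and 153 CPM, with no overlap. WT females had 102, 162, 124 and 103 CPM, above all Y665F females and overlapping the Y665H females. Mlxipl rose by 1.00 ± 0.25 (log2, SE) in Y665H against Y665F females (edgeR adjusted p = 0.0272), the largest change of the 10 genes among the 6 comparisons between genotypes. The call held in 4 of 8 fits with 1 library left out and the adjusted p ran from 0.0155 to 0.0735. It was lost without Y665F female 1 and without Y665H female 1, 2 or 4. It was also lost with the adipocyte markers as covariate (log2 0.68, adjusted p = 0.0747), and it held with the skeletal muscle markers as covariate (log2 1.41, adjusted p = 0.0177). Against WT the log2 fold changes were -0.63 ± 0.24 for Y665F (edgeR adjusted p = 0.143) and 0.37 ± 0.20 for Y665H (adjusted p = 0.294). In males the genotypes overlapped, from 60.2 to 122 CPM.

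The sex difference in each mutant effect was tested as male effect minus female effect, with 0 of the 10 genes called by edgeR for Y665F (0% of all genes) and 0 for Y665H (0.0119%). DESeq2 called 2 of the 10 for Y665F (6.91%) and 0 for Y665H (4.09%). At an unadjusted p under 0.05 there were 3 of the 10 for Y665F (21.8% of all genes) and 2 of the 10 for Y665H (18.3%). For Y665F the values were highest for Slc2a4, at 1.16 ± 0.37 (edgeR adjusted p = 0.141, DESeq2 adjusted p = 0.0385), and for Akt2 and Irs2, at 0.83 each with SE 0.28 and 0.35. For Y665H, Foxo1 had 0.90 ± 0.29 (edgeR adjusted p = 0.171) and Akt2 0.58 ± 0.22 (adjusted p = 0.213). Without WT male 1, edgeR called Slc2a4 (adjusted p = 0.0457) and Akt2 (adjusted p = 0.0495) for Y665F, and Foxo1 (adjusted p = 0.0268) and Akt2 (adjusted p = 0.0471) for Y665H. The same fits called 1686 of 17129 genes for Y665F and 1844 of 17168 for Y665H. WT male 1 had 0.145 CPM of summed epididymis markers, and WT males 2 to 4 had 7734, 2239 and 731 CPM. In the fits with the epididymis markers as covariate, 0 genes were called in either interaction.

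The 116 other genes of the pathway, in 9 lists, were called most often between the mutant females. Of the 109 tested in Y665H against Y665F females, 23 rose and 7 fell, beside 17.4% called over all genes. Genes of glycogen metabolism and glycolysis made up 15 of the 23 that rose: 7 of 12 glycogen genes rose and 0 fell, with a median log2 fold change of 0.69, and 8 of 13 tested glycolysis genes rose and 0 fell, with a median of 0.55. With 1 library left out, 1 to 6 glycogen and 3 to 8 glycolysis genes were called, beside 1554 to 2839 of all genes. The glycogen count was lowest without Y665F female 1 (1 gene), was 2 without Y665F female 4 or Y665H female 1 or 4, 3 without Y665H female 3 and 4 without Y665F female 3. The glycolysis count was 3 without Y665F female 4 and 4 without Y665F female 1 or Y665H female 1 or 2. All 15 skeletal muscle markers were also above 0 in this comparison, 8 of them called, with a median of 4.03. With those markers as covariate, 4 glycogen and 7 glycolysis genes rose, and with the adipocyte markers as covariate 2 and 5. Over all genes, these 2 fits called 1834 and 2063 of 15493. All 8 thermogenic adipocyte markers were above 0 as well, 6 of them called, with a median of 3.10, and their sum was 52.9 to 256 CPM in Y665H and 13 to 25.6 CPM in Y665F females. The part of the thermogenic markers in the result was not tested.

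Among single genes, Ldha, the lactate dehydrogenase subunit that makes lactate from pyruvate, had 717, 864, 534 and 647 CPM in Y665F females and 1284, 1254, 1260 and 1363 CPM in Y665H females. It rose by 0.89 ± 0.15 (log2, SE; edgeR adjusted p = 0.00649). The glycolytic enzymes Pgk1 (0.55 ± 0.07, edgeR adjusted p = 0.00239), Pfkl (0.76 ± 0.13) and Pgam1 (0.67 ± 0.15) rose as well. Gys1, the glycogen synthase of muscle and fat, had 109, 143, 109 and 135 CPM in Y665F females and 293, 203, 206 and 209 CPM in Y665H females. It rose by 0.86 ± 0.15 (edgeR adjusted p = 0.00754), and Gyg, the glycogenin that primes glycogen, by 0.88 ± 0.19. These 6 genes were named for their small p in this comparison, and in none of them did the groups overlap. Over all tested genes, 25.2% did not overlap. The call was lost for Pgam1 without Y665F female 1 or 4 (adjusted p up to 0.0521) and for Gyg without Y665F female 1 (adjusted p = 0.0517).

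In the signalling lists, 2 of 19 tested genes between receptor and AKT rose in Y665H against Y665F females and 1 fell. Pik3cb, a catalytic subunit of PI3-kinase, had 63.4, 72.6, 44.7 and 69.2 CPM in Y665F and 129, 122, 127 and 137 CPM in Y665H females. It rose by 1.03 ± 0.14 (edgeR adjusted p = 0.00313). Cbl, a ubiquitin ligase recruited to the receptor, fell by 0.48 (log2; SE 0.08, edgeR adjusted p = 0.00678). Of the 7 genes of mTORC1 and PDE3B, 2 rose, among them the mTOR inhibitor Deptor by 0.85 ± 0.15. Of 14 inhibitors of the insulin signal, 0 rose and 1 fell. Of 19 GLUT4 traffic genes, 1 rose, and of 10 FOXO family members and targets, 1 rose. Of the 8 tested ChREBP partners and targets, 2 rose and 1 fell.

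Other glucose transporters and hexokinases went the other way, with 4 of 7 tested genes lower in Y665H than in Y665F females, 0 higher and a median of -0.72. Slc2a3, the transporter GLUT3 of neurons and leukocytes, had 19.9, 11, 10 and 20.3 CPM in Y665F and 5.99, 6.34, 7.19 and 5.19 CPM in Y665H females. It fell by 1.32 (log2; SE 0.26, edgeR adjusted p = 0.0118). Slc2a6, a transporter of macrophages, fell by 1.47 (SE 0.23, adjusted p = 0.00521 by edgeR), and Hk3, a hexokinase of myeloid cells, fell by 1.05 (SE 0.22). Immune markers were lower in the same comparison: 9 of 13 tested T and NK cell markers, 7 of 10 B cell markers and 6 of 12 macrophage markers fell. The summed T and NK cell markers were 41.7 to 64.3 CPM in Y665F and 9.33 to 32.3 CPM in Y665H females, and the summed macrophage markers 1338 to 2251 and 778 to 1186 CPM. Their part in the result was not tested.

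**Figure D4:**
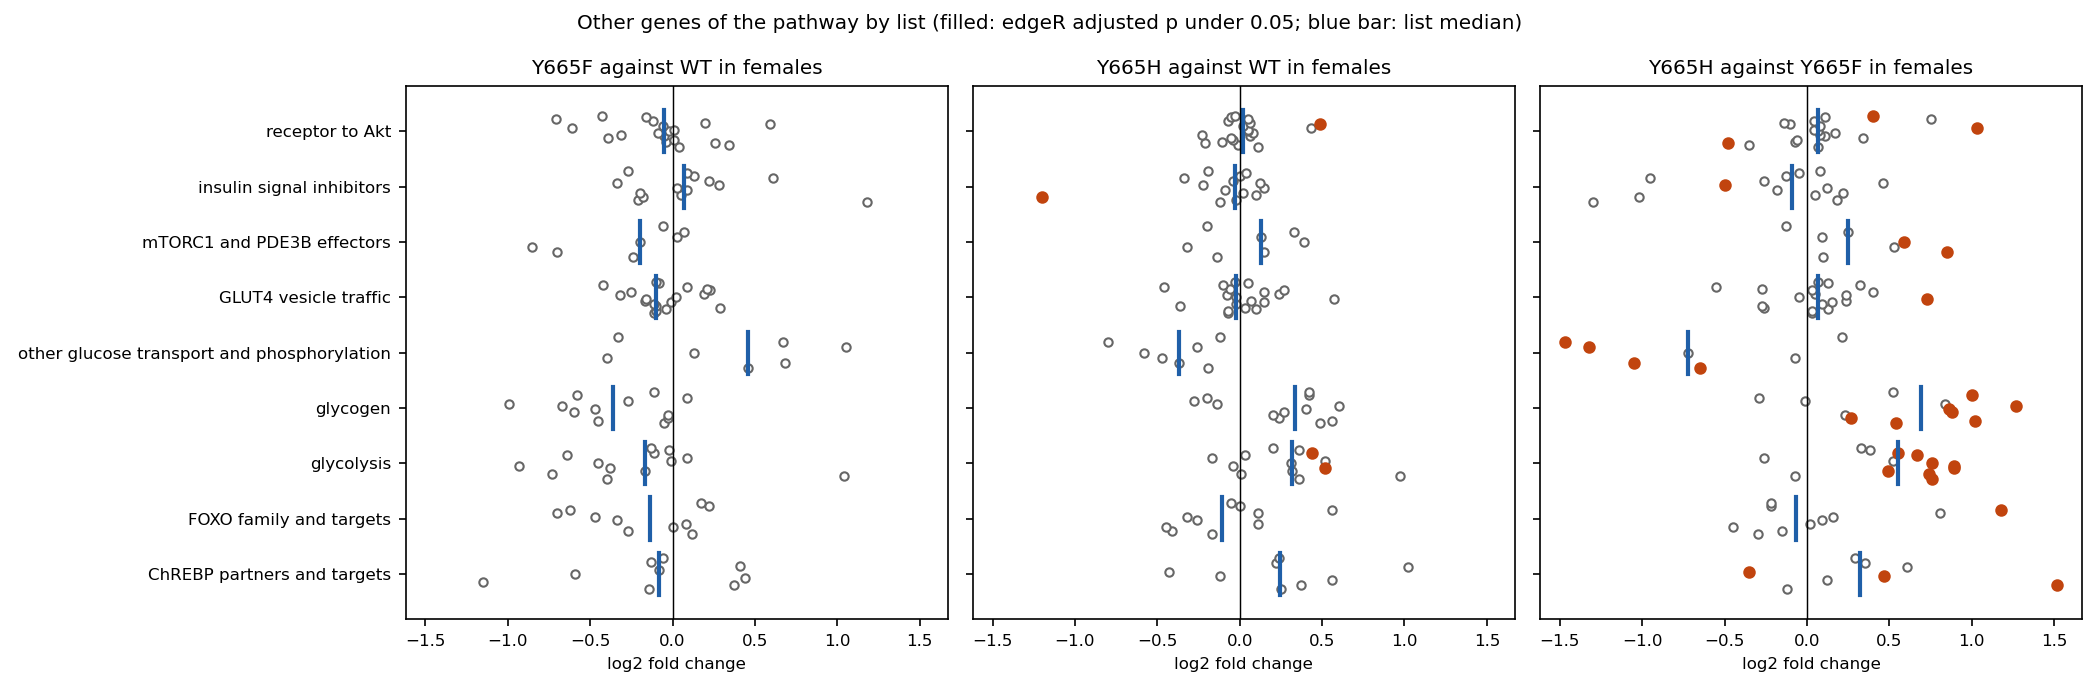
Log2 fold changes of the genes of the pathway lists (rows of points) in 3 comparisons between females (panels), from edgeR; each point is a gene, filled where the adjusted p was under 0.05, and blue bars are list medians. In Y665H against Y665F females the glycogen and glycolysis lists have medians of 0.69 and 0.55 and the list of other glucose transporters and hexokinases has a median of -0.72.

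Against WT females, Y665F called 0 of 110 tested pathway genes, with 35 at an unadjusted p under 0.05, 24 of these lower, and DESeq2 called 18. Over all genes the shares were 3.33%, 26.3% and 12.9%. Y665H called 4 of 109, close to the 3.34% over all genes. Pgk1 rose by 0.44 ± 0.08 (edgeR adjusted p = 0.031) and Ldha by 0.52 ± 0.11 (adjusted p = 0.0428). Pik3r3, a regulatory subunit of PI3-kinase, had 19.4, 19.6, 21.3 and 18.9 CPM in WT and 23.4, 28.5, 30.4 and 29.2 CPM in Y665H females and rose by 0.49 ± 0.10 (edgeR adjusted p = 0.035). Grb14, an adaptor that inhibits the insulin receptor, had 8.16, 8.13, 12.2 and 10 CPM in WT and 2.95, 3.99, 3.1 and 6.74 CPM in Y665H females. It fell by 1.20 (log2; SE 0.27, edgeR adjusted p = 0.0493). The Pgk1 and Ldha calls, with 1 library left out, held in 2 of 8 fits, without WT female 2 or 3. The Pik3r3 call held in 2, without Y665H female 1 or WT female 3, and the Grb14 call in 1, without Y665H female 4. In the other fits the adjusted p of these genes reached 0.114 to 0.153. In males, edgeR called 0 pathway genes in each of the 3 comparisons between genotypes. At an unadjusted p under 0.05 there were 15, 10 and 16, and DESeq2 called 6, 0 and 8, for Y665F against WT, Y665H against WT and Y665H against Y665F. Over all genes these shares were 17.1%, 11.4% and 18% at the unadjusted p, and 6.38%, 0.402% and 6.74% by DESeq2.

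Between WT males and WT females, 6 of 112 tested pathway genes rose and 14 fell in males, beside 13.1% of all genes. Of 13 tested glycolysis genes, 5 fell and 1 rose, and of 12 glycogen genes, 3 fell and 0 rose. Grb10, another adaptor that inhibits the insulin receptor, had 76.6, 39.9, 56.1 and 67.6 CPM in males and 149, 157, 145 and 159 CPM in females. It fell by 1.32 (log2; SE 0.18, edgeR adjusted p = 0.00756). Pdk4, the kinase that shuts down pyruvate oxidation in fasting, fell by 2.10 (SE 0.36), and Sesn3, a FOXO target, by 0.69 (SE 0.14). Tbc1d4, the AKT substrate AS160 that holds GLUT4 inside the cell, fell by 0.70 (SE 0.14). Pygl, glycogen phosphorylase, fell by 1.38 (SE 0.29), and the glycolytic enzymes Pgk1, Pfkl and Pkm fell by 0.58 (SE 0.11), 0.70 (SE 0.14) and 0.69 (SE 0.15). With 1 library left out, the call of Grb10 held in all 8 fits and that of Pdk4 in 6, all but those without WT female 1 or 4 (adjusted p up to 0.0598). Those of Sesn3, Tbc1d4 and Pygl held in 3, without WT male 1, 2 or 4 (up to 0.0746), and that of Pkm in 2, without WT male 1 or 2 (up to 0.08). The Pgk1 call was lost without any 1 of the WT females (up to 0.0598), and the Pfkl call without WT male 3 or WT female 2, 3 or 4 (up to 0.0626). Of the markers, 11 of 15 for skeletal muscle, 6 of 7 for thermogenic adipocytes (median -2.43) and 6 of 8 for progenitors and fibroblasts (median -0.96) fell in males, and 5 of 11 for epithelium rose (median 4.20). Of the 12 adipocyte markers, 0 were above 0 (median -0.72) and 0 were called. Their sum was 10161 to 29917 CPM in WT males and 30111 to 35246 CPM in WT females. With the skeletal muscle, adipocyte or epididymis markers as covariate, 121, 293 and 201 of 15865 genes were called between the sexes, against 2079 without them. The part of the thermogenic, progenitor, fibroblast and epithelial markers in the sex differences was not tested.

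Slc2a3, Aldoc and Pklr, 3 of the 6 pathway genes that rose in WT males, varied several-fold between the WT male libraries. Slc2a3 had 22.8, 41.8, 52.3 and 239 CPM in WT males and 5.22 to 9.46 CPM in WT females. The aldolase Aldoc had 1.05, 33.2, 5.46 and 4.81 CPM in WT males and 0.284 to 0.632 CPM in WT females. Pklr, the pyruvate kinase of liver and a ChREBP target, had 1.48, 3.14, 4.77 and 7.85 CPM in WT males. In WT females it had 0 to 0.0927 CPM. The call of Pklr held, with 1 library left out, in all 8 fits. That of Slc2a3 was lost without any 1 of the WT females (adjusted p up to 0.0798), and that of Aldoc also without WT male 3 (up to 0.0944). In each of the 3 genes WT male 1, whose epididymis marker sum was 0.145 CPM, was the lowest WT male and still above every WT female.

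Over the 24 libraries, the genes with a pattern most like that of Irs1 were the sialyltransferase gene St3gal4, Ifi27 and Gpam, the acyltransferase that starts triglyceride synthesis. Their centred log2 CPM differed from that of Irs1 by a root mean square of 0.26, 0.30 and 0.30, where the median over 11641 genes was 0.71. St3gal4 had 65.1 CPM in WT and 94.4 CPM in Y665H females. For Slc2a4 the closest were Fam73b (0.22), Eif4e3 (0.23) and Isoc2a (0.24), against a median of 0.55. For Irs2 they were Rhbdl1 (0.25), Sesn2 (0.28) and Ffar4, a fatty acid receptor (0.28), against a median of 0.57.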

How the data were processed

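Per the labels, ribosomal RNA was removed from total RNA, and stranded libraries were sequenced in pairs. The authors deposited raw read counts per gene symbol, 1 file per library. The submitters' processing notes name FastQC 0.11.9, Trimmomatic 0.36, STAR, SAMtools 1.9, Picard 2.9.2, HTSeq 0.9.1 and the build mm10; the annotation and strand setting are not given in the sources used here, so reads of overlapping or antisense genes may be shared. The 5 entries naming no gene (24.8 to 39.7% of counts) were left out.

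Libraries were grouped by their titles. No pair within a group matched within sampling noise (chi-square per degree of freedom at least 16.4). The main test was edgeR 4.0.16 (R 4.3.3; quasi-likelihood, TMM, filterByExpr, Benjamini-Hochberg over all genes tested) on the 8 libraries of 2 groups, or 16 for interactions. DESeq2 1.42.0 and other settings were alternatives. Scripts were tested on simulated data. The SE is the absolute log2 fold change over the root of F. Levels are CPM with 1 TMM scaling over 24 libraries. Precision is limited by 4 libraries per group.

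The 10 genes, the pathway lists and the markers were chosen with earlier results of these data known. Beside the 10 genes, the text names per comparison up to 12 called pathway genes with the smallest p, and for the 3 most variable genes the 3 closest in pattern with a mean of at least 5 CPM. One gene that this rule names is not reported here.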

Additional observations from a re-analysis of the deposited data

Results flagged for a closer look

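Among the 60 sets of 4 libraries (10 genes in 6 groups), 2 held a library that stood apart from the other 3 by Dixon's test at the 95% level, where chance alone marks about 1 in 20 sets. Akt2 in Y665H male 2 was 408 CPM, above the 335 to 344 CPM of the other Y665H males. Mlxipl in Y665F female 3 was 45.9 CPM, below the 86.5 to 92.4 CPM of the other Y665F females.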

How the results depend on the processing

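Each of the 10 genes had at least 396 counts per library, and the tests are limited by 4 libraries per group. Of the 7 comparisons between groups and 2 interactions, the number of the 10 genes called was 0 under all settings for Y665F against WT males, Y665H against WT males and Y665H against Y665F males. With 1 library left out the number ran from 0 to 1 for Y665F against WT females, 0 to 1 for Y665H against WT females, 0 to 2 for Y665H against Y665F females, 0 to 6 for WT males against WT females (6 without WT male 1), and 0 to 2 in each interaction (2 without WT male 1). Without WT male 1, 5076 of 16510 genes were called for WT males against WT females. DESeq2 called 3, 3, 5 and 2 of the 10 in Y665F against WT females, Y665H against Y665F females, WT males against WT females and the Y665F interaction. The fit over all 24 libraries called 1, 0, 2 and 6 in Y665F against WT, Y665H against WT and Y665H against Y665F females and WT males against WT females. Of 17157 genes, that fit called 512, 250, 2164 and 5987 in these comparisons. For WT males against WT females, 1 was called without the low-count filter and 0 with the skeletal muscle, adipocyte or epididymis covariate. Over all genes, these fits called 1636 of 21653 without the filter and 121, 293 and 201 of 15865 with the covariates. For Y665H against Y665F females, 0 were called with the adipocyte covariate, beside 2063 of 15493 genes.

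No consistent pairing of the libraries by replicate number was detected, which does not show that none exists. Correlations of deviations between same-numbered libraries ran from -0.51 to 0.79, and at most 2 of 4 pairs in a comparison passed 0.1. At most 4 of 8 libraries were closest to their own number. With the replicate block, 0 of the 10 genes were called in Y665H against WT females and 1 in WT males against WT females, and 32 and 825 of all genes, against 516 and 2079 without it.

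Over all settings, the number of all genes called ran from 0 to 2014 (521 in the main test) for Y665F against WT females, 0 to 2261 (0 in the main test) for Y665F against WT males, 20 to 1764 (516 in the main test) for Y665H against WT females, 0 to 203 (0 in the main test) for Y665H against WT males, 1554 to 3897 (2689 in the main test) for Y665H against Y665F females, 0 to 1078 (164 in the main test) for Y665H against Y665F males, 121 to 5987 (2079 in the main test) for WT males against WT females, 0 to 1686 (0 in the main test) for the Y665F interaction, 0 to 1844 (2 in the main test) for the Y665H interaction. For the pathway lists it ran from 0 to 18 (0) for Y665F against WT females, 0 to 17 (4) for Y665H against WT females, 12 to 41 (30) for Y665H against Y665F females, 2 to 46 (20) for WT males against WT females.

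The following log2 fold changes were not called and changed sign, and the cause was not tested. With the adipocyte marker covariate the sign turned in Y665F against WT females Insr (0.03), Pik3r1 (0.11), Foxo1 (0.03) and Slc2a1 (-0.12), in Y665F against WT males Irs2 (-0.02) and Mlxipl (0.00), in Y665H against WT males Insr (-0.08), Irs1 (-0.28), Pik3r1 (-0.32) and Slc2a4 (-0.45), in Y665H against Y665F females Slc2a1 (0.25), in Y665H against Y665F males Akt2 (0.00), Foxo1 (-0.12) and Slc2a1 (0.19), in WT males against WT females Insr (0.01), in the Y665F interaction Pik3r1 (-0.33), in the Y665H interaction Irs2 (-0.16), Pik3r1 (-0.39) and Slc2a4 (-0.25). With the epididymis marker covariate the sign turned in Y665F against WT males Insr (-0.02), Irs2 (-0.04), Akt2 (-0.14), Slc2a1 (0.15) and Mlxipl (-0.13), in Y665H against WT males Insr (-0.04), Irs1 (-0.19), Pik3r1 (-0.32), Slc2a4 (-0.36) and Slc2a1 (0.05), in the Y665F interaction Irs1 (-0.15) and Pik3r1 (-0.53), in the Y665H interaction Pik3r1 (-0.44) and Slc2a4 (-0.26). With the skeletal muscle marker covariate the sign turned in Y665F against WT males Hk2 (0.04), in Y665H against WT females Hk2 (0.01), in Y665H against WT males Irs2 (0.02), in Y665H against Y665F females Pik3r1 (-0.06) and Foxo1 (0.07), in Y665H against Y665F males Insr (0.00) and Slc2a1 (0.05), in the Y665F interaction Pik3r1 (-0.01). With the replicate block the sign turned in Y665F against WT males Pik3r1 (0.02). With the fit without the low-count filter the sign turned in the Y665H interaction Insr (0.01). With 1 library left out, the sign turned, over the range given, in Y665F against WT females Pik3r1 (-0.27 to 0.02), in Y665F against WT males Irs2 (-0.03 to 0.2), Pik3r1 (-0.25 to 0.16), Slc2a1 (-0.21 to 0.01), Hk2 (-0.15 to 0.05) and Mlxipl (-0.04 to 0.28), in Y665H against WT females Pik3r1 (-0.02 to 0.19), Slc2a4 (-0.25 to 0.02) and Hk2 (-0.11 to 0.05), in Y665H against WT males Irs2 (-0.21 to 0.09), Pik3r1 (-0.01 to 0.45), Slc2a4 (-0.11 to 0.29) and Mlxipl (-0.22 to 0.09), in Y665H against Y665F females Slc2a1 (-0.37 to 0.1), in Y665H against Y665F males Irs2 (-0.28 to 0.02) and Slc2a1 (-0.19 to 0.01), in WT males against WT females Irs2 (-0.09 to 0.23), in the Y665F interaction Pik3r1 (-0.19 to 0.26), in the Y665H interaction Insr (-0.08 to 0.06), Pik3r1 (-0.13 to 0.33) and Slc2a4 (-0.01 to 0.38). No other value of the 10 genes changed sign. Scaling by gene totals in place of TMM moved 3 of 60 group means by more than 1 SD, Insr in Y665H females to 256 CPM, Pik3r1 in WT females to 668 CPM and Slc2a1 in WT females to 15.6 CPM.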
